A study of Mus musculus with 2 samples.

Results

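The 40 genes described here encode the antioxidant enzymes of the cell and the regulators of the Nrf2 pathway that controls many of them. They were chosen by name, all 40 were found among the 30744 gene symbols (32958 gene models) of the deposited exon count table, and each had a single model. The libraries were 1 from a mouse kidney tumour (genotype Tet-OSKM/mPer2-luc, treated with doxycycline) and 1 from a normal mouse kidney (genotype labelled WT, no doxycycline), both on a C57BL/6 x DBA/2 F1 background. OSKM stands for the reprogramming factors Oct4, Sox2, Klf4 and c-Myc, which doxycycline switches on through the Rosa26-M2rtTA activator, and the mPer2-luc transgene reports the circadian gene Per2 through luciferase. Embryonic stem cells that carry these transgenes were injected into blastocysts per the protocol text of the labels, so a treated animal is a chimera that also holds host cells. The sources used here do not give the age and sex of the animals, the doxycycline dose, the time of day or whether the normal kidney came from a chimera. With 1 library per group there is no replicate check, and every difference below is between these 2 libraries and not between the conditions.

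Nrf2, the product of Nfe2l2, is a transcription factor that is held in the cytoplasm and marked for degradation by Keap1. Oxidants and electrophiles modify cysteines of Keap1, after which Nrf2 collects in the nucleus, pairs with small Maf proteins and binds the antioxidant response element of genes for glutathione synthesis, thioredoxin recycling and quinone reduction. The enzymes of the list act in a chain. Superoxide dismutases turn superoxide into hydrogen peroxide, which catalase, glutathione peroxidases and peroxiredoxins remove. The glutathione peroxidases and peroxiredoxins, but not catalase, do so with electrons that come from glutathione and thioredoxin. The proximal tubule of the kidney is rich in mitochondria and peroxisomes, and it is the main source of the glutathione peroxidase of blood plasma.

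Levels are given as reads over exons and as CPM, which are reads relative to library size, after scaling the libraries with TMM, a method that sets the trimmed mean of the log ratios of all genes to 0. Levels of different genes are compared only as RPKM, the deposited values in which reads are divided by transcript length and library total. A fold sets the TMM-scaled count of the tumour against that of the normal kidney, and the range given after it is an exact conditional 95% interval that covers counting error only. A gene was called higher or lower when the fold reached 2 and the interval left out a ratio of 1, and the other genes are listed as neither. All 40 members had at least 20 reads over both libraries, the minimum for a gene to count as measured, which 16326 genes passed. Exon reads came to 20836819 in the tumour library and 29258428 in the normal library. Markers of the normal nephron were low in the library labelled tumour. The 16 proximal tubule markers were all lower there and summed to 1028 CPM in the tumour and 79124 CPM in the normal kidney, with none at 0 in either library. The 13 markers of later nephron segments were all lower too, at 71.1 CPM in the tumour and 7713 CPM in the normal kidney, with Pvalb at 0 reads in the tumour. Pluripotency markers were higher for 12 of 12 genes, at 3730.0 CPM in the tumour and 28.03 CPM in the normal kidney. Of them 7 were at 0 in the normal kidney. Pou5f1, the gene of Oct4, and Sox2 are also factors that doxycycline switches on, at 449 and 151 CPM in the tumour. Whether their reads came from the transgene or from the genes themselves was not tested. Cell division markers were higher for 12 of 12 genes, at 3837 CPM in the tumour and 88.9 CPM in the normal kidney.

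Most antioxidant genes had lower transcript levels in the tumour. Of the 40 members, 29 were lower, 4 were higher and 7 were neither. The lower calls of 10 genes (Glrx, Glrx2, Gpx4, Gsr, Hmox2, Keap1, Nqo2, Sod1, Txn1 and Txnrd2) fell short of 2-fold under at least 1 other scaling or read minimum tried. The lower share of 72.5% stands beside 28.0% of all measured genes, and the 4 of 40 that were higher stand beside 31.2%. The median log2 ratio was -1.37 for the members, beside 0.08 for all measured genes. Among genes with a mean of at least 50 CPM, 35.0% were lower and 24.5% higher, beside 22 and 2 of the 30 members that abundant. At least 4-fold lower levels were found for 17 members, beside 15.8% of measured genes, and at least 4-fold higher levels for 2 members, beside 18.5%. These 2, Gpx2 and Gpx7, were also at least 8-fold higher, beside 12.2% of measured genes. At least 8-fold lower levels were found for 12 members (30.0% of them, beside 9.16% of measured genes). They were Ggt1, Gpx3, Gpx6, Nox4, Sod3, Prdx5, Msra, Cat, Gss, Nqo1, Gpx1 and Sod2. The 4 higher members were Gpx2, Gpx7, Prdx4 and Hmox1. Together the 40 genes took 0.426% of exon reads in the tumour (Clopper-Pearson 95% interval 0.423% to 0.429%) and 2.11% in the normal kidney (2.10% to 2.11%). Gpx3 alone held 0.0166% of exon reads in the tumour and 0.931% in the normal kidney. Without Gpx3 the other 39 genes summed to 3376 CPM in the tumour and 14263 CPM in the normal kidney. These are bulk tissues, in which fewer cells of a type and less RNA per cell cannot be told apart.

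**Figure D1:**
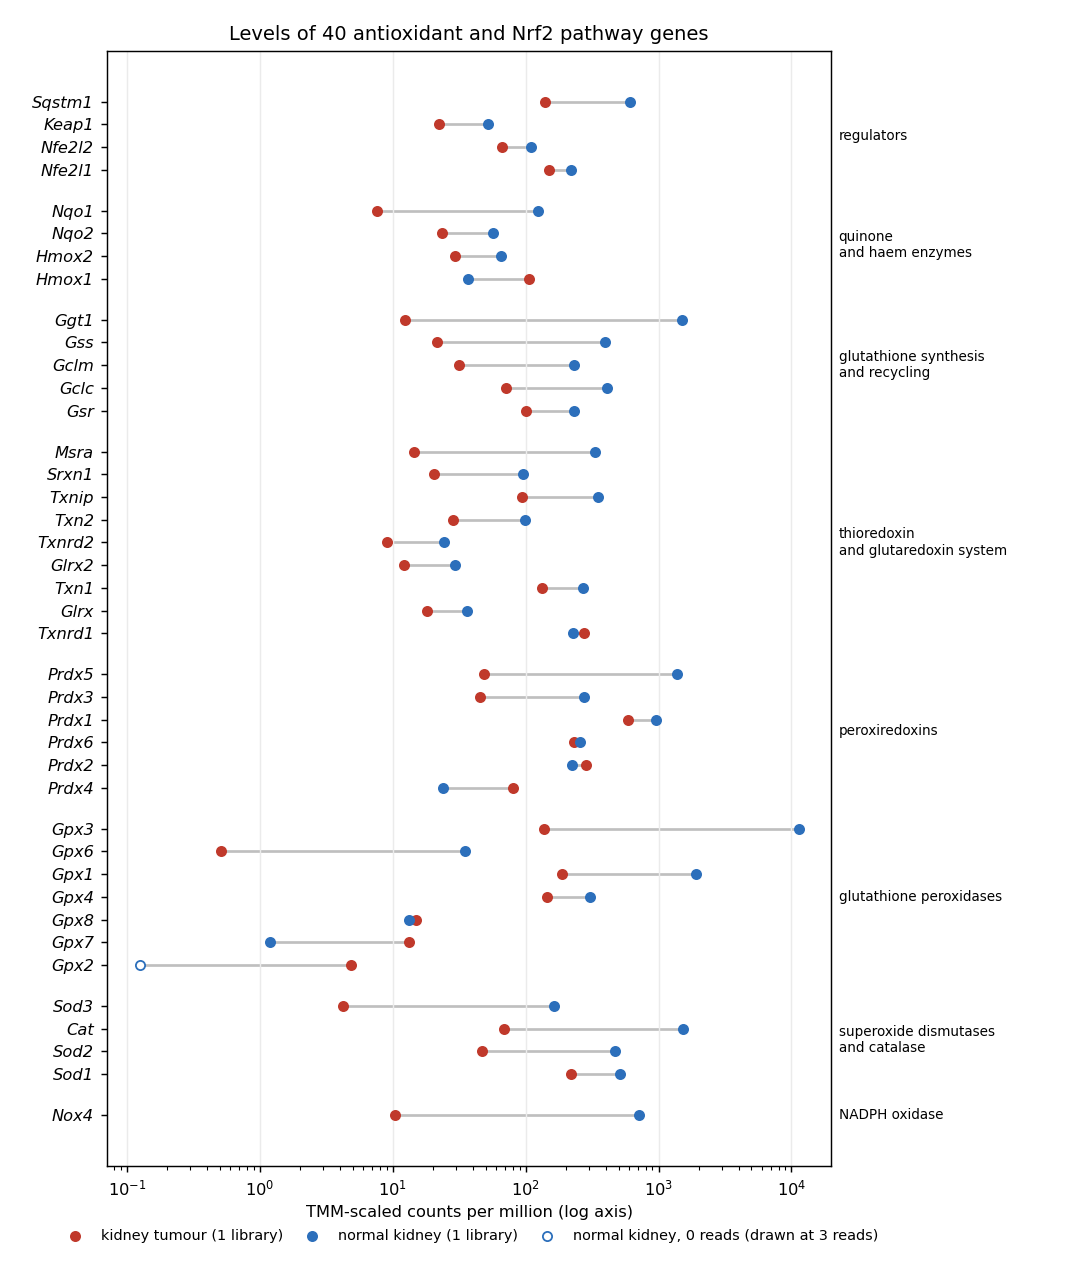
TMM-scaled CPM on a log axis for each of the 40 genes, red for the kidney tumour and blue for the normal kidney, 1 library each, grouped by role. The tumour point lies left of the normal point for most genes, and the reverse order is widest for Gpx2, which had 0 reads in the normal kidney and is drawn there at 3 reads.

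**Figure D2:**
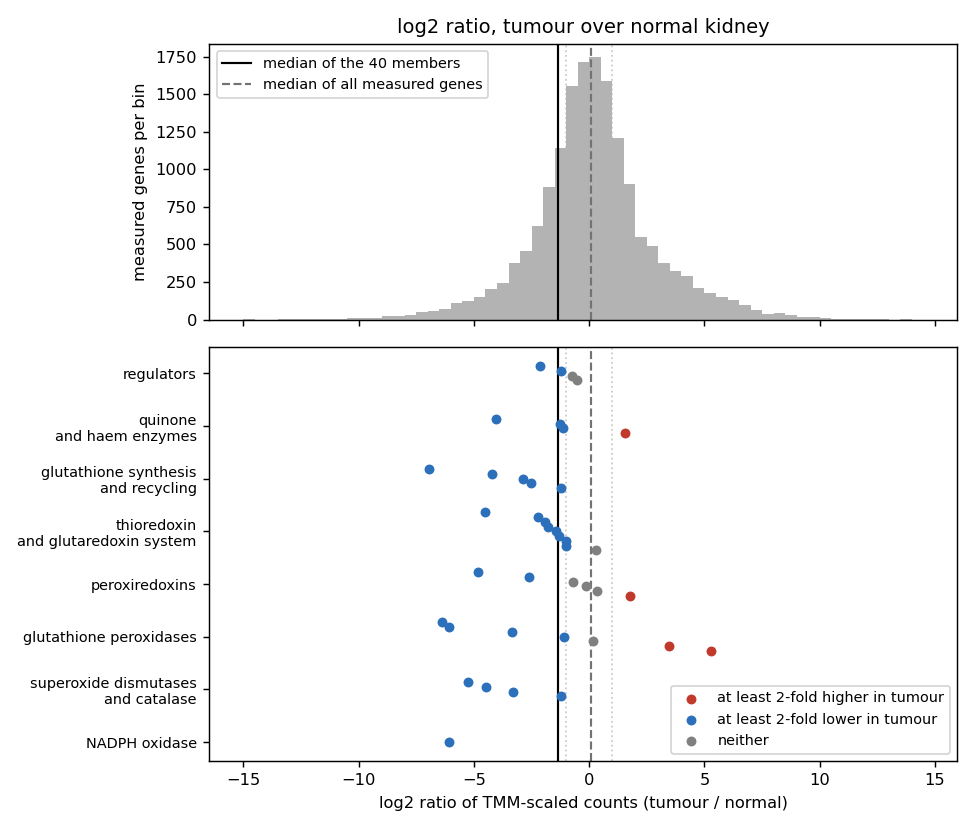
The upper panel counts the 16326 measured genes by log2 ratio of TMM-scaled counts with the tumour in the numerator, and the lower panel shows each of the 40 genes by role. Dotted lines mark 2-fold, the solid line the members' median of -1.37 and the dashed line the median of all measured genes.

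Both transcription factors of the list differed by less than 2-fold, and the other 2 regulators were lower. Nfe2l1 (chromosome 11, 96817414 to 96829968), a relative of Nrf2 that raises proteasome genes when proteasomes fail, had 149.7 CPM in the tumour (3785 reads) and 219 CPM in the normal kidney (5278 reads), and was 1.46-fold lower (1.40 to 1.52). Nfe2l2 (chromosome 2, 75675519 to 75704641), which encodes Nrf2 itself, had 66.5 CPM in the tumour (1681 reads) and 110.2 CPM in the normal kidney (2658 reads), and was 1.66-fold lower (1.56 to 1.76). Keap1 (chromosome 9, 21229730 to 21239332), the inhibitor of Nrf2, was lower, with 22.3 CPM in the tumour (564 reads) and 51.7 CPM in the normal kidney (1248 reads), 2.32-fold lower (2.10 to 2.57). Per length, the level of Nfe2l2 relative to Keap1 was 3.80 in the tumour and 2.72 in the normal kidney. Sqstm1 (chromosome 11, 50200152 to 50210820) encodes the autophagy receptor p62, which binds Keap1 and is itself an Nrf2 target. It had 139 CPM in the tumour (3526 reads) and 611 CPM in the normal kidney (14731 reads) and was 4.38-fold lower (4.22 to 4.54), the lowest ratio of the 4 regulators. Transcript levels do not report the amount of Nrf2 protein, which is set mainly by its degradation.

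Quinone and haem enzymes were divided. Nqo1 (chromosome 8, 107388225 to 107403205), which reduces quinones by 2 electrons and is the classic Nrf2 target, had 7.56 CPM in the tumour (191 reads) and 124 CPM in the normal kidney (2997 reads). It was 16.4-fold lower (14.2 to 19.1), while its relative Nqo2 was 2.42-fold lower (2.20 to 2.67). Hmox1 (chromosome 8, 75093618 to 75100593), the inducible haem oxygenase that breaks haem into biliverdin, iron and carbon monoxide, went the other way, with 106 CPM in the tumour (2674 reads) and 36.6 CPM in the normal kidney (882 reads). It was 2.89-fold higher (2.68 to 3.12), and the constitutive Hmox2 was 2.21-fold lower (2.02 to 2.42). The level of Hmox1 relative to Hmox2, per length, was 2.82 in the tumour and 0.442 in the normal kidney, so the order of the pair was turned round. Macrophages that take up red cells are rich in Hmox1. Markers of macrophages and neutrophils were higher for 12 of 13 measured genes, with a summed level of 512 CPM in the tumour and 137 CPM in the normal kidney. Csf1r, the receptor that defines the lineage, was the 13th at 27.3 CPM in the tumour and 51.5 CPM in the normal kidney, below 2-fold, and Mpo had 2 reads in the tumour and 0 in the normal kidney. The part of these cells in the Hmox1 value was not tested.

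All 5 genes of glutathione synthesis and recycling were lower in the tumour, beside 28.0% of all measured genes. Gclc (chromosome 9, 77754535 to 77794489) and Gclm (chromosome 3, 122245557 to 122267215) encode the catalytic and modifier subunits of glutamate-cysteine ligase, the rate-limiting enzyme. Gclc had 70.97 CPM in the tumour (1794 reads) and 408 CPM in the normal kidney (9843 reads) and was 5.75-fold lower (5.47 to 6.05). Gclm had 31.3 CPM in the tumour (791 reads) and 231 CPM in the normal kidney (5564 reads) and was 7.37-fold lower (6.84 to 7.95). The ratios of the 2 subunits were close, and Gclc relative to Gclm per length was 1.37 in the tumour and 1.07 in the normal kidney. Glutathione synthetase, Gss (chromosome 2, 155563181 to 155592810), which adds glycine in the second step, showed a larger difference, with 21.5 CPM in the tumour (543 reads) and 394 CPM in the normal kidney (9496 reads), 18.3-fold lower (16.8 to 20.02). The reductase Gsr, which regenerates glutathione with NADPH, had 101 CPM in the tumour (2541 reads) and 232 CPM in the normal kidney (5599 reads) and was only 2.31-fold lower (2.20 to 2.42). Relative to Gss per length, Gsr stood at 3.43 in the tumour and 0.432 in the normal kidney.

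Ggt1 (chromosome 10, 75573593 to 75586182), the gamma-glutamyltransferase of the proximal tubule brush border that breaks down glutathione outside the cell, showed the lowest ratio of all 40 genes. It had 12.3 CPM in the tumour (310 reads) and 1505 CPM in the normal kidney (36295 reads), and was 123-fold lower (109.7 to 138). In RPKM it had rank 32 of the 40 genes in the tumour and rank 5 in the normal kidney. Its log2 ratio of -6.94 lay beside a median of -8.34 for the proximal tubule markers, and the part of the tubule cells in the Ggt1 value was not tested.

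Promoter windows of 300 bases, from 250 before to 50 after a start site, were on hand for 34 of the 40 genes in a RefSeq table of GRCm38.p6, the assembly that mm10 names. The genes with no entry were Gclc, Gsr, Hmox1, Msra, Prdx6 and Sod3. The core of the antioxidant response element, TGACNNNGC on either strand, was found in 7 of the 34 genes (20.6%, beside 14.0% of all 27025 genes with a window). Some genes have several windows, and counted by window it was in 9 of 53 of the members', beside 12.4% of all 32851. The 7 genes were Gclm, Ggt1, Nfe2l2, Prdx1, Sod1, Srxn1 and Txnrd1. The stricter form TGANTCAGC, which the Nrf2 and small Maf pair binds and which overlaps the first motif where N is C, was found in Prdx1 and Srxn1 (5.88% of 34 genes, beside 1.37% of all genes). Of the 7 genes with a match, Gclm, Ggt1, Sod1 and Srxn1 were lower, and Nfe2l2, Prdx1 and Txnrd1 were neither. Several of the 9 windows with a match belong to Ggt1. They end at base 75571609 of chromosome 10 or before it, ahead of the deposited Ggt1 model, which starts at base 75573593. The windows of Gclm, Srxn1, Prdx1 and Txnrd1 were picked after these ratios were seen and are printed below. Each runs 5′ to 3′ on the gene's strand, and capitals mark matches to either motif. The Prdx1 match begins 133 bases before the start and fits both motifs. In Srxn1 the stricter match begins 45 bases before the start and the looser one begins at base 29 of the transcript. The Gclm window (chr3:122245307-122245606, plus strand), the Prdx1 window (chr4:116685349-116685648, plus strand) and the Srxn1 window (chr2:152105274-152105573, plus strand) lie at the start of the deposited model. The Txnrd1 window (chr10:82858956-82859255, plus strand) belongs to an alternative start inside it. A match is a string of letters and not a binding site.
Gclm: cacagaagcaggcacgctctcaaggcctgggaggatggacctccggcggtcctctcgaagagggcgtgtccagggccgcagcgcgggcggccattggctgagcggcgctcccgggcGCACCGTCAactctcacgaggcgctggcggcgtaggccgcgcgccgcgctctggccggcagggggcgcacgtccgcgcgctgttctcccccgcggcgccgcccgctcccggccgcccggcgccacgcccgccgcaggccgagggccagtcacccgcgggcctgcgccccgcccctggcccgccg
Srxn1: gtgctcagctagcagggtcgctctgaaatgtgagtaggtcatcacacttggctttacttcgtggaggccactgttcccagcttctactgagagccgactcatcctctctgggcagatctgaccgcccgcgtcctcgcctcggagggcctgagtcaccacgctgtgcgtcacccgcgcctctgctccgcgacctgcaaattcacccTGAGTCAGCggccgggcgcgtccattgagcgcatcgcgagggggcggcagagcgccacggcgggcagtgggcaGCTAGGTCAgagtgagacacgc
Prdx1: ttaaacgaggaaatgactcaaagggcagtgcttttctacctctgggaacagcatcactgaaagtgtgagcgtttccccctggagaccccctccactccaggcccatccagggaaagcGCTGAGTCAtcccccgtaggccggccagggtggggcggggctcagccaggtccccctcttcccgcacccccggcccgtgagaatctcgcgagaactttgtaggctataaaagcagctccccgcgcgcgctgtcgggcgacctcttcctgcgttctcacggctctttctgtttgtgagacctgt
Txnrd1: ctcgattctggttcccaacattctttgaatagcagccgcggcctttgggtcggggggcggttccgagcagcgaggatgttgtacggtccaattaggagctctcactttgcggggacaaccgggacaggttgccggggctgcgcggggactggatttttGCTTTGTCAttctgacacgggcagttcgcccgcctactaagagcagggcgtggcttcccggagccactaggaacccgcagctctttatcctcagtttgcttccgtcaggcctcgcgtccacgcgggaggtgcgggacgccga

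In the thioredoxin and glutaredoxin system 8 of 9 genes were lower (88.9%, beside 28.0% of all measured genes) and 1 was neither. The lower calls of Txn1, Txnrd2, Glrx and Glrx2 are among those that fell short of 2-fold under another scaling or read minimum. The gene that was neither is Txnrd1 (chromosome 10, 82833951 to 82897724), the cytosolic selenoprotein that reduces thioredoxin with NADPH and an Nrf2 target. It had 275 CPM in the tumour (6948 reads) and 225 CPM in the normal kidney (5435 reads) and was 1.22-fold higher (1.18 to 1.26). Its substrate Txn1 (chromosome 4, 57943373 to 57956411), cytosolic thioredoxin, had 133 CPM in the tumour (3364 reads) and 271 CPM in the normal kidney (6537 reads) and was 2.04-fold lower (1.95 to 2.12), close to the 2-fold line. The reductase relative to its substrate, per length, stood at 0.597 in the tumour and 0.240 in the normal kidney. The mitochondrial pair was lower on both sides, Txn2 at 28.6 CPM in the tumour and 98.1 CPM in the normal kidney (3.42-fold lower, 3.15 to 3.73) and Txnrd2 at 8.98 CPM in the tumour and 24.4 CPM in the normal kidney (2.72-fold lower, 2.33 to 3.18). Per length Txnrd1 was the second most abundant of the 9 genes in the tumour and the fifth in the normal kidney.

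Txnip (chromosome 3, 96557957 to 96561857), an arrestin that binds reduced thioredoxin and is induced by glucose, had 94.1 CPM in the tumour (2379 reads) and 352 CPM in the normal kidney (8479 reads). It was 3.74-fold lower (3.57 to 3.91), and relative to Txn1 per length it stood at 0.265 in the tumour and 0.486 in the normal kidney. Srxn1 (chromosome 2, 152105524 to 152111376), sulfiredoxin, which restores over-oxidised peroxiredoxins, had 20.6 CPM in the tumour (520 reads) and 94.7 CPM in the normal kidney (2283 reads) and was 4.60-fold lower (4.18 to 5.07). The glutaredoxins, which remove glutathione from proteins, differed less, with Glrx 2.01-fold lower (1.80 to 2.26) and the mitochondrial Glrx2 2.45-fold lower (2.14 to 2.81). Msra (chromosome 14, 64122621 to 64441040), the reductase of methionine sulfoxide, had 14.5 CPM in the tumour (366 reads) and 334 CPM in the normal kidney (8060 reads). At 23.1-fold lower (20.8 to 25.7) it showed the largest difference of this group, and it made up 3.33% in the tumour and 27.4% in the normal kidney of the group's summed RPKM.

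Of the 6 peroxiredoxins 2 were lower, 1 was higher and 3 were neither. The lower share of 33.3% is near the 28.0% of all measured genes, and the higher share of 16.7% stands beside 31.2%. Prdx1 and Prdx2, the abundant cytosolic enzymes, and Prdx6, the form with a single active cysteine, were neither higher nor lower by 2-fold. Prdx1 (chromosome 4, 116685599 to 116700000) had 588 CPM in the tumour (14854 reads) and 951 CPM in the normal kidney (22938 reads), 1.62-fold lower (1.59 to 1.65). Prdx2 (chromosome 8, 84969648 to 84974313) had 286 CPM in the tumour (7219 reads) and 224 CPM in the normal kidney (5397 reads), 1.28-fold higher (1.23 to 1.32), and Prdx6 had 229 CPM in the tumour (5791 reads) and 255 CPM in the normal kidney (6150 reads), 1.11-fold lower (1.07 to 1.15). The direction of Prdx6 depends on the scaling, since its log2 ratio of -0.15 was 0.40 with plain CPM. Prdx2 is also a main protein of red cells, whose 6 measured markers were all lower, at 97.9 CPM in the tumour and 309 CPM in the normal kidney, and their part in the Prdx2 value was not tested. Gata1, a factor of the red cell lineage below the minimum, had 11 reads in the tumour and 0 in the normal kidney. Prdx3 (chromosome 19, 60864066 to 60874538), the mitochondrial form, was lower, with 45.02 CPM in the tumour (1138 reads) and 274 CPM in the normal kidney (6597 reads), 6.08-fold lower (5.71 to 6.48).

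Prdx5 and Prdx4 lay at opposite ends of the family. Prdx5 (chromosome 19, 6906819 to 6909645), found in mitochondria, peroxisomes and cytosol, had 48.7 CPM in the tumour (1231 reads) and 1372 CPM in the normal kidney (33097 reads), and was 28.2-fold lower (26.6 to 29.9). Prdx4 (chromosome X, 155323920 to 155338454), the enzyme of the endoplasmic reticulum, which uses peroxide to help form disulfides in secreted proteins, had 80.9 CPM in the tumour (2044 reads) and 24.1 CPM in the normal kidney (580 reads), and was 3.36-fold higher (3.06 to 3.69). The make-up of the family changed with them. Prdx5 took 7.11% in the tumour and 61.95% in the normal kidney of the summed RPKM of the 6 genes, Prdx1 took 41.5% in the tumour and 20.8% in the normal kidney, Prdx2 30.4% in the tumour and 7.36% in the normal kidney and Prdx4 8.32% in the tumour and 0.765% in the normal kidney. Such shares are taken within a library and do not depend on the scaling. Srxn1 relative to Prdx1, one of its substrates, stood at 0.0176 in the tumour and 0.0500 in the normal kidney per length.

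Glutathione peroxidases ranged from Gpx3, 82.8-fold lower, to Gpx2, which had reads in the tumour only. Gpx3 (chromosome 11, 54902854 to 54910382), the secreted enzyme of plasma, had 137 CPM in the tumour (3451 reads) and 11299.8 CPM in the normal kidney (272510 reads), and was 82.8-fold lower (80.04 to 85.6). Per length, among all measured genes, it had rank 582 in the tumour and rank 7 in the normal kidney. Gpx6 (chromosome 13, 21312203 to 21319624), a close relative of Gpx3 that carries cysteine in place of selenocysteine in the mouse, had 13 reads in the tumour and 847 reads in the normal kidney, 68.3-fold lower (39.7 to 129). Gpx1 (chromosome 9, 108339080 to 108340344), the cytosolic and mitochondrial selenoenzyme, had 188 CPM in the tumour (4741 reads) and 1924 CPM in the normal kidney (46401 reads), and was 10.3-fold lower (9.96 to 10.6). Gpx4 (chromosome 10, 80054019 to 80056439), which removes lipid peroxides and protects cells from ferroptosis, differed least among the selenoenzymes of this family, with 144 CPM in the tumour (3640 reads) and 303 CPM in the normal kidney (7301 reads), 2.10-fold lower (2.02 to 2.19).

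The glutathione peroxidases that were not lower were Gpx2, Gpx7 and Gpx8. Gpx2 (chromosome 12, 76792335 to 76795554), the enzyme of gut epithelium and an Nrf2 target, had 122 reads in the tumour (4.83 CPM) and 0 reads in the normal kidney. Set against a floor of 3 reads in that library (0.124 CPM), it was at least 38.8-fold higher, and the lower limit of its counting interval was 31.1-fold. Its processed pseudogene Gpx2-ps1 is at least 95% identical over 572 bases, so reads of the pair could be split. Gpx7 (chromosome 4, 108400217 to 108406713), a peroxidase of the endoplasmic reticulum that acts with protein disulfide isomerase, had 335 reads in the tumour and 29 in the normal kidney, 11.02-fold higher (7.53 to 16.7). Its neighbour in function Gpx8 had 379 reads in the tumour and 321 in the normal kidney. With TMM its interval of the ratio, 0.968 to 1.31, included no difference. This depends on the scaling, since the log2 ratio of Gpx8 was 0.17 with TMM and 0.73 with plain CPM. Fibroblasts, which secrete collagen, and mural cells of vessel walls were marked by 11 genes. Of these 5 were higher, 1 was lower (Rgs5) and 5 were neither. They summed to 1096 CPM in the tumour and 419.6 CPM in the normal kidney, with none at 0. Most of the tumour's sum came from the collagen genes Col3a1 (466 CPM), Col1a2 (200 CPM) and Col1a1 (175 CPM). Dcn and Pdgfra were among those that were neither. Of 12 endoderm and hepatocyte markers 3 were higher, 7 lower and 2 neither, at 318 CPM in the tumour and 4799 CPM in the normal kidney. Most of the normal kidney's sum came from Cubn at 210.4 CPM in the tumour and 2087 CPM in the normal kidney, which is also one of the proximal tubule markers, Apob at 62.2 CPM in the tumour and 1376 CPM in the normal kidney and Hnf4a at 11.5 CPM in the tumour and 1042 CPM in the normal kidney. Foxa2 and Rbp4 were at 0 reads in the normal kidney and Alb at 0 in the tumour. The part of these cells in the Gpx2 and Gpx7 values was not tested.

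Within each library the glutathione peroxidases changed order. Gpx3 took 20.4% in the tumour and 77.4% in the normal kidney of the summed RPKM of the 7 genes, Gpx1 took 40.5% in the tumour and 19.1% in the normal kidney, and Gpx4 took 32.3% in the tumour and 3.12% in the normal kidney. In the tumour Gpx1 led, followed by Gpx4 and Gpx3, whereas in the normal kidney the order was Gpx3, Gpx1, Gpx4. The level of Gpx3 relative to Gpx4 was 0.631 in the tumour and 24.8 in the normal kidney. Summed over the family, levels were 502 CPM in the tumour and 13576 CPM in the normal kidney. Gpx3 made up 137 CPM in the tumour and 11299.8 CPM in the normal kidney of that sum. Lower calls were made for 4 of the 7 genes, higher calls for 2 and neither for 1, and their median log2 ratio was -1.07. The lower share of 57.1% stands beside 28.0% of all measured genes, and the higher share of 28.6% is near their 31.2%.

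**Figure D3:**
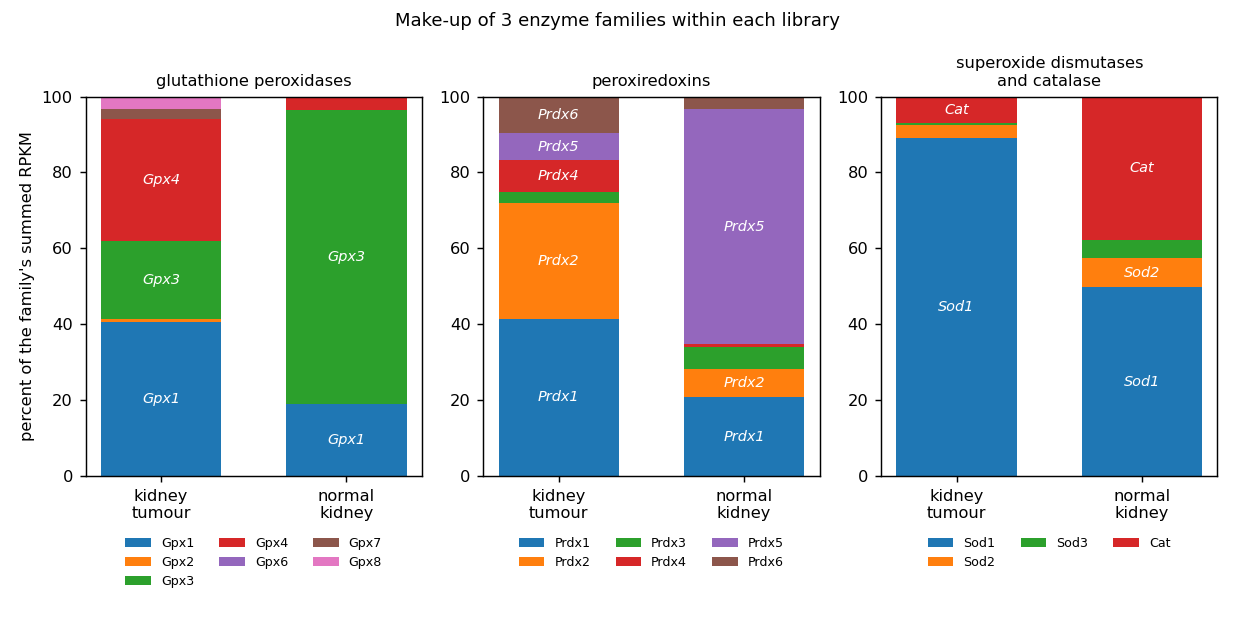
Share of each gene in the summed RPKM of its family, kidney tumour on the left and normal kidney on the right of each panel, 1 library each. Gpx3, Prdx5 and Cat take smaller shares in the tumour, and Gpx4, Prdx2 and Sod1 larger ones.

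Superoxide dismutases and catalase were lower in all 4 cases, beside 28.0% of all measured genes, and by different amounts. Sod1 (chromosome 16, 90220742 to 90226324), the cytosolic copper and zinc enzyme, had 219 CPM in the tumour (5528 reads) and 511 CPM in the normal kidney (12334 reads) and was 2.34-fold lower (2.27 to 2.41). Sod2 (chromosome 17, 13007839 to 13018119), the manganese enzyme of the mitochondrial matrix, had 46.8 CPM in the tumour (1184 reads) and 467 CPM in the normal kidney (11252 reads) and was 9.96-fold lower (9.38 to 10.6). Sod3 (chromosome 5, 52363804 to 52369738), which is secreted and binds the matrix around cells, had 107 reads in the tumour and 3917 in the normal kidney, 38.4-fold lower (31.7 to 46.9). Catalase, Cat (chromosome 2, 103453904 to 103485153), which splits peroxide inside peroxisomes, had 68.3 CPM in the tumour (1726 reads) and 1529 CPM in the normal kidney (36882 reads), and was 22.4-fold lower (21.3 to 23.5). The level of Sod2 relative to Sod1 per length was 0.0361 in the tumour and 0.154 in the normal kidney. Sod1 took 89.2% in the tumour and 49.7% in the normal kidney of the summed RPKM of these 4 genes, and Cat took 7.05% in the tumour and 37.7% in the normal kidney.

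Nox4 (chromosome 7, 87246649 to 87398708) is the member that makes rather than removes peroxide, an oxidase described as abundant in kidney tubules. It had 10.5 CPM in the tumour (265 reads) and 708 CPM in the normal kidney (17065 reads), and was 67.5-fold lower (59.8 to 76.5). Among other sources of superoxide or peroxide, 4 of 13 measured genes were higher, 5 lower and 4 neither, and the median log2 ratio was -0.27. The higher share of 30.8% is close to the 31.2% of all measured genes, and the lower share of 38.5% stands beside 28.0%. Cyba, the membrane partner of Nox4 and of the phagocyte oxidase, was 11.1-fold lower (10.3 to 12.01). The lower genes were led by the peroxisomal oxidases Dao (200.3-fold lower, 149 to 276) and Hao2 (178-fold lower, 137 to 236), which oxidise D-amino acids and hydroxy acids. The higher ones were led by genes of the cytosolic part of the phagocyte oxidase, Rac2 (4.59-fold higher, 3.10 to 6.99), Ncf1 (3.72-fold higher, 2.63 to 5.38) and Ncf4 (3.66-fold higher, 1.91 to 7.58). Cybb, the catalytic subunit of the phagocyte oxidase, was neither, with 18.9 CPM in the tumour (478 reads) and 11.5 CPM in the normal kidney (277 reads), so the subunits of that enzyme did not share a direction. Cyba and Cybb were named after their values were seen. The macrophage and neutrophil markers are given above, and the part of those cells was not tested. Nox1 and Nox3 had 0 reads in both libraries.

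Grouped by place, the 5 mitochondrial members (Txn2, Txnrd2, Prdx3, Sod2 and Glrx2) were all lower, beside 28.0% of all measured genes. Their log2 ratios were -3.32 to -1.29. They summed to 142 CPM in the tumour and 892 CPM in the normal kidney. Gene models of the mitochondrial chromosome took 1.22% of exon reads in the tumour and 10.6% in the normal kidney, and their part in these values was not tested. A further 7 members are secreted, bound to the outer membrane face or kept in the endoplasmic reticulum. Of these 4 were lower (Ggt1, Gpx3, Gpx6 and Sod3), 2 were higher (Gpx7 and Prdx4) and Gpx8 was neither. Their lower share of 57.1% stands beside 28.0% of all measured genes, and their higher share of 28.6% is near the 31.2% of all measured genes. Of the 6 selenoproteins (Gpx1, Gpx2, Gpx3, Gpx4, Txnrd1 and Txnrd2) 4 were lower, 1 was higher and 1 was neither. Their median log2 ratio was -1.26. The selenoproteins' lower share of 66.7% stands beside 28.0% of all measured genes, and their higher share of 16.7% beside 31.2%.

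Genes that supply selenium and make selenoproteins were lower for 10 of 19 measured, higher for 2 and neither for 7. Their median log2 ratio was -1.26. The lower share of 52.6% stands beside 28.0% of all measured genes, and the higher share of 10.5% beside 31.2%. Dio1, a deiodinase selenoprotein, had 5 reads in the tumour and 1160 in the normal kidney (243-fold lower, 104 to 750.4). Megalin, Lrp2, which takes up selenoprotein P in the proximal tubule, was 18.6-fold lower (18.3 to 18.9), and Sepp1, which encodes selenoprotein P, was 17.9-fold lower (17.3 to 18.5). The higher genes were Lrp8 (9.10-fold higher, 6.58 to 12.9), another receptor of selenoprotein P, and Sephs1 (2.19-fold higher, 2.06 to 2.32). Sephs2, the enzyme that makes selenophosphate, was 4.13-fold lower (3.97 to 4.31), and was named for contrast with its paralog Sephs1 after its value was seen.

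Other regulators of the pathway were higher for 4 of 13 measured genes and lower for none, and the higher share of 30.8% is close to the 31.2% of all measured genes. Their median log2 ratio was 0.26. Nfe2l3, a relative of Nrf2, had 127 reads in the tumour and 3 in the normal kidney, 40.4-fold higher (13.5 to 198). Of the small Maf partners Maff was 9.42-fold higher (6.50 to 14.1), while Mafk at 14.2 CPM in the tumour and 28.03 CPM in the normal kidney and Mafg at 25.8 CPM in the tumour and 29.7 CPM in the normal kidney were neither. The repressor Bach2 was 2.64-fold higher (2.16 to 3.24). The fourth was Dpp3, a peptidase that binds Keap1, at 2.38-fold higher (2.24 to 2.53); it was named to complete the count. Bach1, which competes with Nrf2 for the same element and represses Hmox1, had 94.1 CPM in the tumour and 78.7 CPM in the normal kidney, and Cul3, the ligase scaffold that works with Keap1, had 142 CPM in the tumour and 165 CPM in the normal kidney; both differed by less than 2-fold. Mafk, Mafg, Bach1 and Cul3 were picked after their values were seen.

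Other genes described as Nrf2 targets did not share a direction. Of 34 measured, 18 were lower, 6 higher and 10 neither. Their median log2 ratio was -1.18. The lower share of 52.9% stands beside 28.0% of all measured genes, and the higher share of 17.6% beside 31.2%. The lower ones were led by the glutathione transferases Gsta2 (120.4-fold lower, 90.1 to 165) and Gsta3 (63.5-fold lower, 49.7 to 82.5) and the conjugate exporter Abcc2 (86.02-fold lower, 75.7 to 98.2). The higher ones were led by Slc7a11, the cystine importer that feeds glutathione synthesis, with 169 reads in the tumour and 18 in the normal kidney (8.96-fold higher, 5.50 to 15.5), Pir (7.54-fold higher, 5.44 to 10.7) and the aldo-keto reductase Akr1b8 (6.82-fold higher, 5.12 to 9.24). The pentose phosphate enzymes G6pdx, Pgd, Tkt and Taldo1, which make NADPH or recycle its sugars, were neither. Their log2 ratios were 0.21, 0.09, 0.07 and -0.98. Me1 and Idh1, which also make NADPH, were 13.3-fold lower (12.2 to 14.6) and 8.35-fold lower (8.03 to 8.68). All of these NADPH and pentose phosphate genes were singled out after their values were seen. Gsta1 and Gsta2 are close paralogs, and Gsta1 had 1 read in each library.

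Among 30 other measured genes of thiol and glutathione metabolism 15 were lower, 4 higher and 11 neither. Their median log2 ratio was -1.03. Dpep1, which cleaves the cysteinylglycine left by Ggt1, was 56.3-fold lower (47.2 to 67.8). Ggt6, of the same family as Ggt1, was 46.6-fold lower (21.2 to 128), and Oplah, which opens 5-oxoproline in the glutathione cycle, was 34.9-fold lower (30.8 to 39.7). The higher genes that the naming rule takes were the nucleoredoxin Nxn (6.76-fold higher, 5.94 to 7.71), Ggt7 (2.56-fold higher, 1.69 to 3.98) and the monothiol glutaredoxin Glrx3 (2.17-fold higher, 2.03 to 2.33). The fourth, Chac1, which degrades glutathione inside the cell, had 32 reads in the tumour and 6 in the normal kidney.

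**Figure D4:**
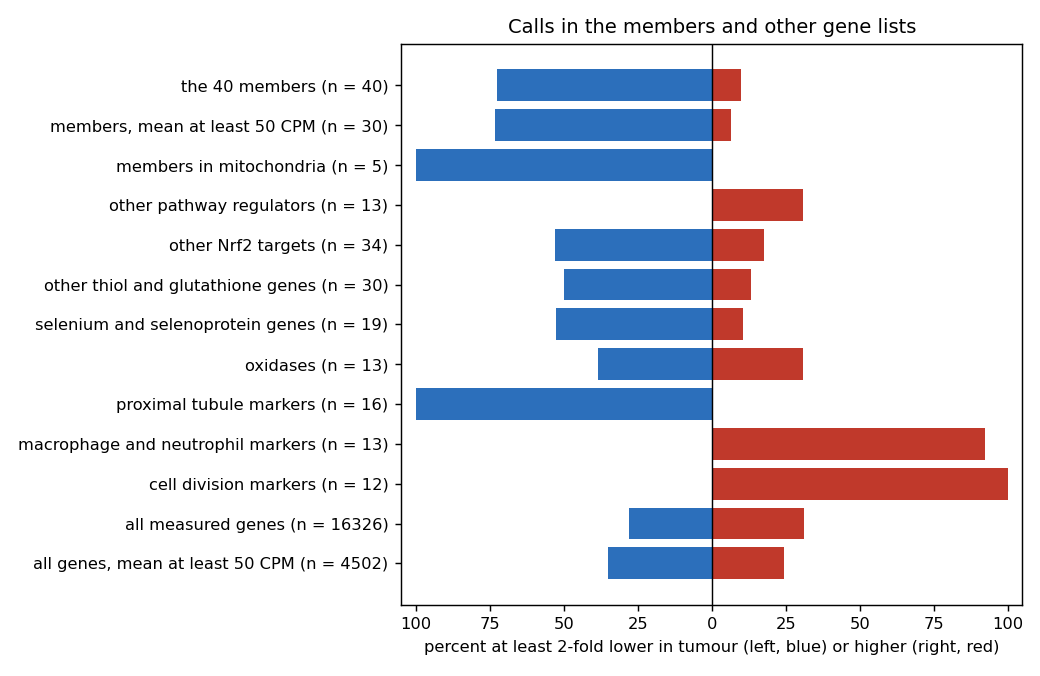
Percent of measured genes at least 2-fold lower (blue, to the left) or higher (red, to the right) in the tumour than in the normal kidney, for the 40 members, other lists and all genes, with the number measured beside each name. The bar of the members reaches 72.5% on the lower side, and that of all measured genes 28.0%.

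The order of levels within each library changed with these differences. In RPKM the 5 most abundant members were Prdx1, Sod1, Prdx2, Gpx1 and Gpx4 in the tumour, and Gpx3, Prdx5, Gpx1, Sod1 and Ggt1 in the normal kidney. Prdx1 stood at 317 RPKM in the tumour and 402 RPKM in the normal kidney, and Gpx3 at 68.8 RPKM in the tumour and 4460.2 RPKM in the normal kidney. Among all measured genes Prdx1 had rank 114 in the tumour and rank 77 in the normal kidney, and Sod1 had rank 133 in the tumour and rank 59 in the normal kidney. Across the 40 members, which share the same 2 libraries and are not independent replicates, Spearman's correlation of RPKM between the libraries was 0.554, beside 0.628 across all measured genes.

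The scaling of the libraries moves all ratios together. Over all measured genes the median log2 ratio rose by 0.56 with plain CPM, by 0.45 with CPM without mitochondrial models and Rn45s, by 0.35 with header totals and by 0.32 with the deposited RPKM plus 0.1. Under all scalings and read minimums tried 19 members stayed at least 2-fold lower, the same 4 stayed higher and the same 7 were neither. The other 10 are those named at the start of the results. Of the 7 that were neither, Nfe2l1 turned to a log2 ratio of 0.01 with plain CPM, and Prdx6 to between 0.20 and 0.40 with plain CPM, CPM without mitochondrial models and Rn45s, header totals and RPKM plus 0.1. Prdx2, Txnrd1 and Gpx8 rose to 0.91, 0.84 and 0.73 with plain CPM. With plain CPM 42.1% of measured genes were called higher and 20.2% lower, beside 4 and 19 of the 40 members. With header totals 37.9% of measured genes were called higher and 22.7% lower, beside 4 and 20 of the 40 members.

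**Figure D5:**
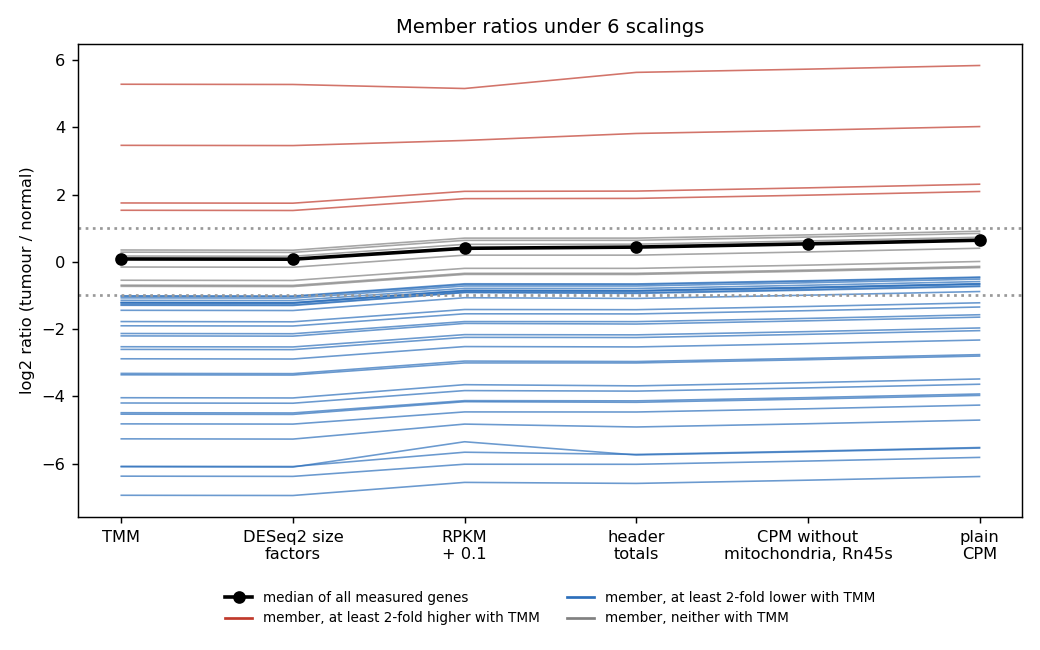
Log2 ratio (tumour over normal) of each of the 40 genes under 6 scalings of the same 2 libraries, coloured by the call with TMM, with the median of all measured genes in black and dotted lines at 2-fold. The lines rise together from TMM to plain CPM, and the members nearest to the lower dotted line cross it.

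Some counts can hold reads of other genes. Near-identical annotated pseudogenes, at least 95% identical over 300 bases or more, exist for Txn1, Prdx1, Prdx2, Gpx2, Gpx4 and Sod1, and the sources used here do not say how reads that fit several places were counted. For 8 members (Keap1, Sqstm1, Nqo2, Hmox2, Gss, Txnip, Prdx2 and Prdx5) at least 10% of the annotated exon bases are also exons of a gene on the opposite strand. The kit keeps the strand, but the strand setting used in counting is likewise not given.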

How the data were processed

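Total RNA of 1 kidney tumour and 1 normal kidney went into strand-keeping libraries after removal of ribosomal RNA, per the labels' protocols. The authors deposited read counts over exons of 32958 UCSC knownCanonical gene models, and the totals per the file headers are 33169818 reads for the tumour and 40408775 for the normal library. Tools listed in the submitters' processing notes, without role or order, are bcl2fastq, STAR 2.5.0c and HOMER, with the build mm10. The authors also deposited RPKM values, which equal the count divided by transcript length and header total within 1.80e-06.

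Counts were used as deposited, with the model of most reads for each symbol. TMM factors (edgeR 4.0.16, R 4.3.3) from the 16326 symbols with at least 20 reads over both libraries were 1.21 for the tumour and 0.824 for the normal library. Ratios carry exact conditional (Clopper-Pearson) 95% intervals, and a count of 0 was set to a floor of 3 reads. Intervals and floors cover counting error only, since PCR copies are not told apart. No p-value was computed with 1 library per group. Alternatives were plain CPM, header totals, DESeq2 1.42.0 size factors, CPM without mitochondrial models and Rn45s, RPKM plus 0.1, minimums of 1 and 100 reads, added models and a 4-fold threshold.

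The members and the other gene lists were chosen with earlier results of these data known. All members are given, and in each other list the rule takes, for each direction, up to 3 called genes whose mean reaches 1 CPM, by size of ratio. Genes named beyond it were chosen after their values were seen, and some genes of these lists are not reported here. Endothelial markers, with 7 of 10 lower and 3 neither (162 CPM in the tumour and 673 CPM in the normal kidney), are not used further. Near copies were searched with BLAST in GENCODE M21 transcripts. Python 3.11.15 with numpy 2.4.6, pandas 2.3.3, scipy 1.17.1 and matplotlib 3.10.9 was used.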

Additional observations from a re-analysis of the deposited data

How the results depend on the processing

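The count of higher members was 4 under each scaling and read minimum tried. The count of lower members, 29 with TMM, was 19 with plain CPM and 19 with CPM without mitochondrial models and Rn45s, and lay between 20 and 29 under the other scalings and minimums. With a 4-fold threshold 2 members were higher and 17 lower. The median log2 ratio of the members, -1.37 with TMM, was -0.81 with plain CPM, -0.92 with CPM without mitochondrial models and Rn45s, -0.99 with the deposited RPKM plus 0.1 and -1.01 with header totals. These shifts follow from the construction of the scalings, which move all genes together: the median of all measured genes rose with them, and the members' median minus that of all genes stayed between -1.45 and -1.35. Higher calls made up 52.8% of all calls with TMM and 67.6% with plain CPM. No called member changed sign. No paired analysis was possible because each group has 1 library, and no library could be left out for the same reason. The smallest counts among the members were those of Gpx2, Gpx6, Gpx7 and Sod3, between 0 and 107 reads in their lower library. Counting error also limits members near a threshold. The intervals of Glrx (1.80 to 2.26) and Txn1 (1.95 to 2.12) spanned 2-fold lower, and that of Gpx8 (0.968 to 1.31) included no difference.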

Other observations

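The opposite-strand neighbours of members that share exon bases with them had these reads in the deposited table. Acss2, which overlaps Gss, had 296 reads in the tumour and 9826 in the normal kidney, beside 543 in the tumour and 9496 in the normal kidney for Gss. Cdip1, which overlaps Hmox2, had 1042 reads in the tumour and 2191 in the normal kidney, beside 743 in the tumour and 1567 in the normal kidney for Hmox2. Serpinb6a, which overlaps Nqo2, had 1509 reads in the tumour and 794 in the normal kidney, the reverse of the direction of Nqo2, which had 596 in the tumour and 1375 in the normal kidney. Trmt112, which overlaps Prdx5, had 382 reads in the tumour and 301 in the normal kidney, beside 1231 in the tumour and 33097 in the normal kidney for Prdx5. Gm15441, antisense to Txnip, had 10 reads in the tumour and 242 in the normal kidney, beside 2379 in the tumour and 8479 in the normal kidney for Txnip. Among the neighbours that overlap Prdx2, Rnaseh2a had 1472 reads in the tumour and 279 in the normal kidney and Junb had 494 in the tumour and 262 in the normal kidney, beside 7219 in the tumour and 5397 in the normal kidney for Prdx2.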
